A study of Mus musculus with 2 samples.

Results

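The 83 genes described here encode the proteins of the cytosolic ribosome in mouse spleen cells. They were taken as every feature whose symbol begins with Rpl or Rps followed by a number, with at most a closing a, l, x or y and a digit, plus Rpsa and Rplp0 to Rplp2, with pseudogenes left out. They are 83 of the 32285 features counted; 32 belong to the small subunit and 51 to the large one. The data are 1 single-cell library from M694I knock-in mice and 1 from wild-type mice, both of whole spleen suspensions after red cell lysis. The knock-in mice carry the M694I change in MEFV, the gene for pyrin; in people M694I is a familial Mediterranean fever allele. Mice of the genotypes were matched for age, and no source used here states how many mice went into a library, their sex or their ages. The labels name neither the zygosity nor the strain. With 1 library per genotype there is no test: each ratio below is knock-in over wild-type, its 95% interval covers counting error only, and genotype cannot be told apart from library.

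Each ribosome holds 1 copy of nearly every one of these proteins, so their messenger RNAs are among the most abundant in a cell and are usually kept in step with each other. Most of the messages begin with a C followed by a run of pyrimidines, the 5′ terminal oligopyrimidine or TOP motif, through which the mTORC1 pathway and the RNA-binding protein Larp1 control their translation. Resting lymphocytes are small cells with little cytoplasm in which ribosomal protein messages take up a large part of the RNA, while neutrophils and plasma cells devote their RNA to other products. Some members have roles outside the ribosome, and a few have paralogs that replace them in particular tissues.

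Start-site windows are shown for the 4 members with the lowest and the 4 with the highest ratio over all cells among those with a RefSeq promoter entry. Each runs 5′ to 3′ on the gene's strand from 20 bases before a RefSeq start to 20 bases from it (GRCm38.p6), and capitals mark its longest unbroken run of C and T. Where a gene had several entries, the one with the longest run was taken, so a window can lie inside the gene.
Rps21: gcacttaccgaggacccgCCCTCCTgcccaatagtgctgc
Rps28: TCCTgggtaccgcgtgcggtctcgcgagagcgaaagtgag
Rps15: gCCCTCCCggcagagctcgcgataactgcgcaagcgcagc
Rpl38: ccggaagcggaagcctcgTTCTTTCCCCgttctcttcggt
Rpl15: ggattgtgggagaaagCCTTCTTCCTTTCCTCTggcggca
Rps2: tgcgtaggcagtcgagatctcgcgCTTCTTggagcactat
Rpl7a: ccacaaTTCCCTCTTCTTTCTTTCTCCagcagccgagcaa
Rplp0: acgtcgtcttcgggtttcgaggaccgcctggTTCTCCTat
These lie at chr2:180257359-180257398 (+) for Rps21, chr17:33824543-33824582 (-) for Rps28, chr10:80292411-80292450 (+) for Rps15 and chr11:114668560-114668599 (+) for Rpl38. The other windows are chr14:18270967-18271006 (-) for Rpl15, chr17:24720043-24720082 (+) for Rps2, chr2:26910787-26910826 (+) for Rpl7a and chr5:115559447-115559486 (+) for Rplp0. The longest runs, in Rpl7a and Rpl15, are 21 and 17 bases. Over the 63 members with an entry, 30 (47.6%) held an unbroken run of at least 8 bases that were each C or T in this window on the sense strand, against 4965 of 27025 genes of all kinds (18.4%). Both counts use the entry with the longest run of each gene, so they are maxima over its entries. Annotated starts can lie some bases away from the start in use, so a window without a run says nothing of that message.

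The kept cells were 8374 in the knock-in library, with 23729015 unique molecular identifiers (UMIs, 1 per captured molecule) and a median of 2017 UMIs per cell, and 9478 in the wild-type library, with 29993419 UMIs and a median of 2522. Mitochondrial genes gave 3.78% of knock-in and 4.72% of wild-type UMIs, and the nuclear RNA Malat1 stood at 17160 knock-in and 27263 wild-type CPM (UMIs of a gene scaled to a common total per library and class); their part in the results below was not tested. Only 27 barcode sequences occurred in both libraries. Cells were put into classes by marker genes that include no ribosomal protein gene, and 8.55% of knock-in and 7.52% of wild-type cells stayed without a class. The classes with at least 100 cells in each library were B-like (5236 knock-in and 6111 wild-type cells), T-like (1822 and 1951), NK-like (141 and 288) and monocyte-like (152 and 184). Their leading genes were Ms4a1 and Fcmr in B-like, Cd3e and Cd3g in T-like, Klra4 and Klra8 in NK-like and Fn1 and F13a1 in monocyte-like cells, with Elane, a gene of granulocyte precursors, also among the 10 leading genes of the last. Of the 83 members, 80 passed the filter on low values (a mean of 10 CPM and 20 UMIs in all) in each of these 4 classes. The others were the testis paralogs Rpl10l (0 knock-in and 1 wild-type UMI) and Rpl39l (14 and 17 UMIs) and the muscle paralog Rpl3l (13 and 14 UMIs).

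T-like cells had the largest share of ribosomal protein messages among the 4 classes and monocyte-like cells the smallest, in both libraries. The share of UMIs was 37.0% in knock-in and 39.3% in wild-type T-like cells, and 30.8% in knock-in and 31.2% in wild-type B-like cells. NK-like cells had 24.7% in the knock-in and 25.5% in the wild-type library, and monocyte-like cells 23.0% and 24.4%. Against B-like cells of their own library, T-like cells had 23 members at least 0.32 higher on the log2 scale in both libraries and 1 lower, where 15.7% of all 6134 genes were higher and 21.8% lower. NK-like cells had no member higher and 32 lower (28.0% and 14.4% of 5123 genes), and monocyte-like cells had 1 higher and 39 lower (27.3% and 23.4% of 5438 genes). The classes are gated on cells of the same 2 libraries, so each such count rests on 2 measurements.

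The mix of ribosomal protein messages also differed between the classes, and did so alike in both libraries. Here each member's UMIs are divided by the UMIs of all 83 members, so that the general level drops out. In monocyte-like cells Rps27l, a p53-induced paralog of Rps27, took a larger part than in B-like cells, by 1.37 log2 units in the knock-in and 1.38 in the wild-type library. Its own level was 365 CPM in knock-in and 385 CPM in wild-type monocyte-like cells, against 190 and 189 CPM in B-like cells. Rpl10, an X-linked member of the large subunit whose insertion is a late step of its maturation, was likewise 0.69 and 0.79 higher in monocyte-like cells. Rpl12, a protein at the base of the stalk, took a smaller part there (-0.82 and -0.87), with 559 CPM in knock-in and 712 CPM in wild-type monocyte-like cells and 1325 and 1658 CPM in B-like cells. Rps19, a small-subunit gene mutated in Diamond-Blackfan anaemia in people, had its lowest part in NK-like cells, with 2814 CPM in the knock-in and 2421 CPM in the wild-type library, against 6136 and 5645 CPM in B-like cells. Within the family this is a difference of -0.80 in the knock-in and -0.93 in the wild-type library. Rps20 was lower than in B-like cells in both NK-like cells (-0.55 and -0.63) and monocyte-like cells (-0.61 and -0.71). T-like cells differed least from B-like cells: Rplp1 (0.37 and 0.39) and Rplp0 (0.35 and 0.45), 2 proteins of the stalk that recruits elongation factors, were higher, and Rpl7l1 (-0.94 and -0.73) and Rps27l (-0.49 and -0.58) were lower. Across the 80 members, the class differences in the knock-in and the wild-type library had a Pearson r of 0.93 for T-like, 0.92 for NK-like and 0.95 for monocyte-like cells, each against B-like cells. The points share their B-like reference within a library, and no library is shared between the axes.

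**Figure D1:**
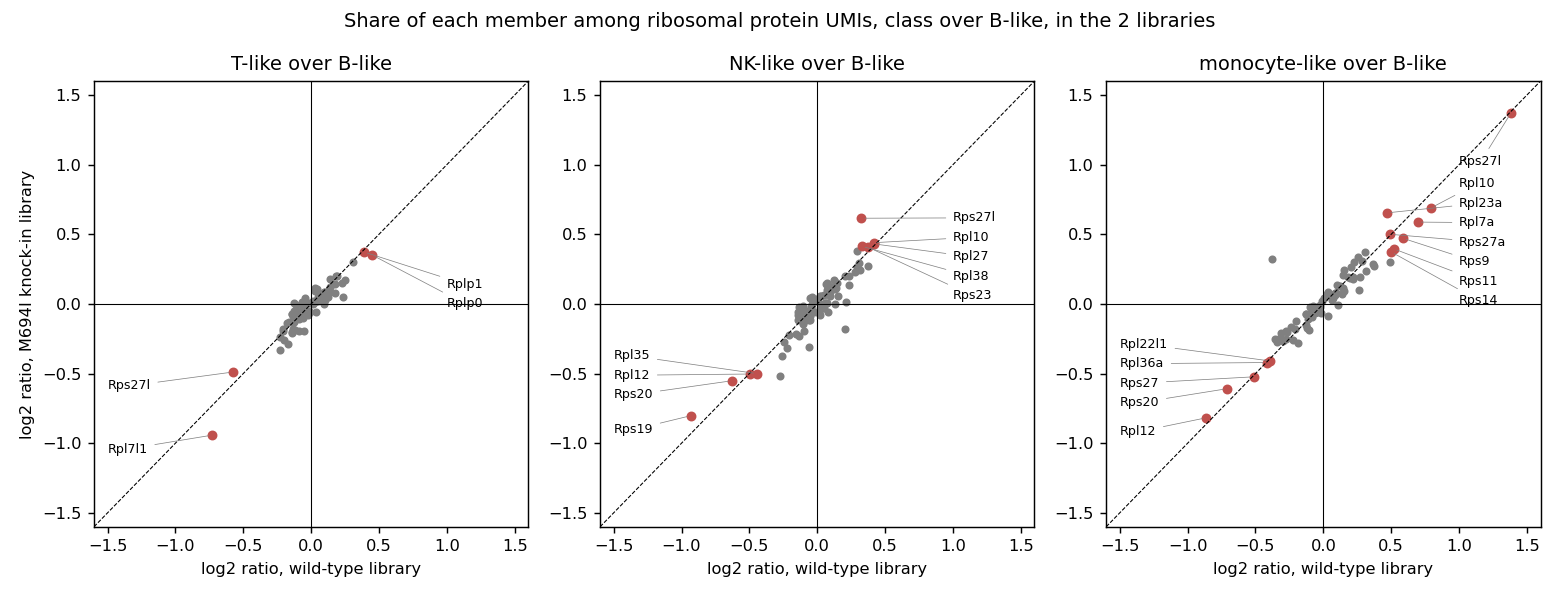
Log2 ratio of each member's share of ribosomal protein UMIs in T-like, NK-like and monocyte-like cells over B-like cells, in the knock-in library (vertical axis) and the wild-type library (horizontal axis). Each point is 1 of 80 members, red and named where both libraries pass 0.32 with 1 sign; the points lie along the dashed line of equality, with Rps27l at the top of the monocyte-like panel and Rps19 lowest in the NK-like panel.

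Between the libraries, the summed share differed by less than 0.1 log2 units in each of the 4 main classes, as gated and weighted here, and by more in some small classes. The log2 ratio of the share was -0.01 (95% counting interval -0.02 to -0.01) in B-like, -0.08 (-0.09 to -0.08) in T-like, -0.05 (-0.06 to -0.04) in NK-like and -0.09 (-0.10 to -0.08) in monocyte-like cells. The NK-like ratio turned to 0.083 in cells of 1000 to 3000 UMIs, so its direction is not settled. Under a stricter gate the B-like ratio was -0.057 and the T-like one -0.17. With cells weighted equally the B-like ratio was -0.044, the T-like one -0.12 and the monocyte-like one -0.11. Over all kept cells the share was 29.9% in the knock-in and 32.0% in the wild-type library, a log2 ratio of -0.10. The library with the lower share of all cells also held more plasma cell-like cells (168 knock-in against 37 wild-type), a class with a share of 14.9% in the knock-in and 13.8% in the wild-type library. Among B-like cells the share was 29.9% in knock-in and 30.5% in wild-type follicular B-like cells, 34.7% and 34.5% in marginal zone B-like, 28.1% and 27.7% in transitional B-like and 31.1% and 30.9% in activated B-like cells. Those 4 pairs differed by at most 0.03 log2 units.

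CD4 T-like cells showed a wider gap, with 30.2% in 176 knock-in and 34.6% in 252 wild-type cells, while CD8 T-like cells had 42.0% in 628 knock-in and 43.4% in 494 wild-type cells. The middle cell of the CD4 group had 28.6% in the knock-in and 36.0% in the wild-type library. The kinds of CD4 cell caught differed between the libraries: the memory or effector list (6 genes) summed to 1428 CPM in knock-in and 214 CPM in wild-type CD4 T-like cells, the regulatory list (5 genes) to 1080 and 620 CPM, and the naive list (5 genes) to 1169 and 1629 CPM. Among CD4 T-like cells with a UMI of the naive list and none of the regulatory or effector lists, the share was 38.2% in 44 knock-in and 41.5% in 119 wild-type cells. Among those with a UMI of the regulatory or effector lists it was 28.1% in 130 knock-in and 30.5% in 132 wild-type cells. The log2 ratio of the share was thus -0.12 within each subset and -0.20 over the class.

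Neutrophil-like cells had the lowest share of any class. It was 7.39% in 56 knock-in and 13% in 119 wild-type cells, a log2 ratio of -0.82. Much of the gap lay in a few deep cells: in the 5 deepest cells of each library the share was 5.54% in knock-in and 19.9% in wild-type cells, and without them it was 8.64% and 10.3%, a ratio of -0.26. The middle cell had 4.03% in the knock-in and 5.43% in the wild-type library. The 9 neutrophil markers summed to 343274 CPM in knock-in and 84356 CPM in wild-type neutrophil-like cells, and they enter the total over which the share is taken; their part in the gap was not tested.

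**Figure D2:**
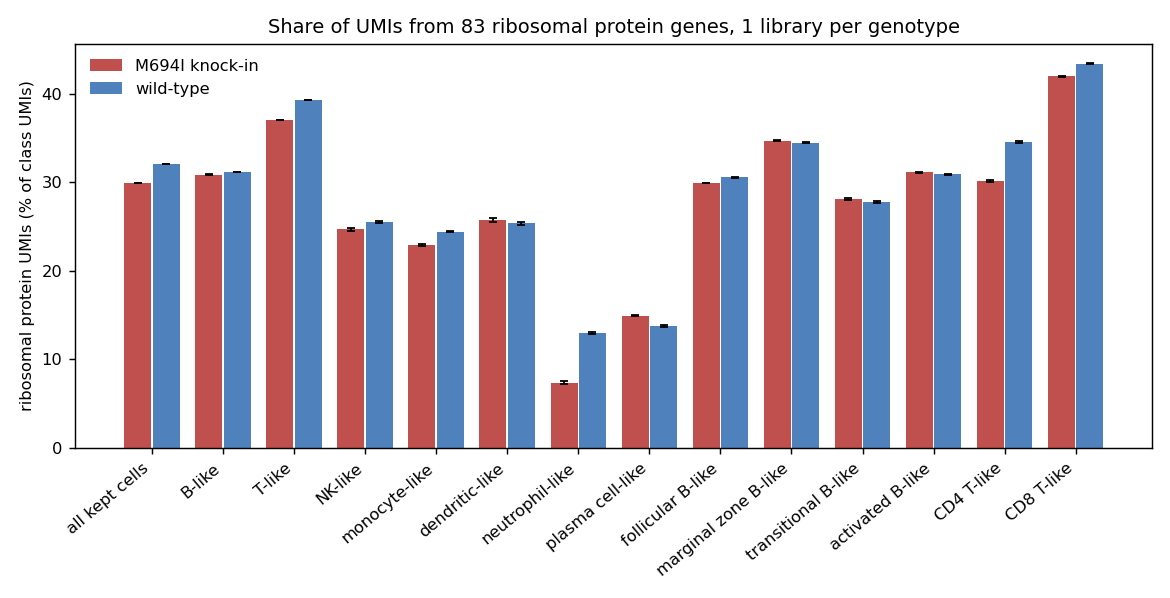
Share of UMIs from the 83 ribosomal protein genes (vertical axis, percent of the class total) in each cell class, with the knock-in library left and the wild-type library right. Error bars are exact 95% binomial intervals for counting error; CD8 T-like cells are highest at 42.0% and 43.4%, neutrophil-like cells lowest at 7.39% and 13%.

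Behind nearly equal sums, single members differed between the libraries in a way that was much the same in every main class. A member was called past the threshold at a log2 ratio of 0.32 in size. Over all kept cells 0 members were higher and 19 lower by that measure (12.5% and 22.4% of 7077 genes), and their median was -0.03 where that of all genes was -0.08. In B-like cells 4 members were higher and 13 lower (14.5% and 18.4% of 6900 genes), and in T-like cells 2 were higher and 20 lower (18.3% and 13.2% of 6782 genes). In NK-like cells 3 were higher and 22 lower (21.5% and 32.0% of 5550 genes), and in monocyte-like cells 2 were higher and 18 lower (25.2% and 26.6% of 6223 genes). The members' medians were 0.03, -0.08, -0.00 and -0.05 in B-like, T-like, NK-like and monocyte-like cells, beside -0.04, 0.04, -0.07 and -0.00 for all genes. Counts of lower members are thus near or below the share of all genes in B-like, NK-like and monocyte-like cells and above it in T-like cells, while those of higher members are below it in all 4. Another scaling moves the split: with TMM factors 13 were higher and 12 lower in B-like, 0 and 23 in T-like, 10 and 16 in NK-like, 2 and 18 in monocyte-like and 3 and 13 in all kept cells. In NK-like cells of 1000 to 3000 UMIs (104 knock-in and 197 wild-type) 24 were higher and 13 lower, and after thinning to 1000 UMIs a cell 15 and 18. Shares of all genes past the threshold under these settings are not given here. These counts therefore do not tell a change in the members from a change in all genes.

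The shifts varied less between classes than those of genes at large. Of the 80 members, 77 had ratios within 0.32 log2 units of each other in the 4 main classes, where 21.9% of 4630 genes did, and the median range was 0.14 for members and 0.56 for all genes. Ribosomal protein genes are highly counted, and ranges were narrower among abundant genes of other kinds too. Among genes with at least 500 CPM in each class, 76 of 76 members and 68 of 85 other genes (80.0%) stayed within 0.32, with median ranges of 0.14 and 0.19. The sign was the same in all 4 classes for 66 of the 80 members. The share of all genes with the same sign in all 4 is not given here, so this count describes members only.

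Past the threshold with 1 sign in all 4 classes were 13 members (16.3%), where 5.57% of all 4630 genes were and 11 of the 85 other abundant genes (12.9%). All 13 were lower in the knock-in library and none was higher. By the size of their smallest difference they were Rps29, Rps21, Rps28, Rps15, Rpl38, Rps27, Rps25, Rpl41, Rpl23a, Rplp1, Rps12, Rpl37a and Rpl12.

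Rps29, a zinc-binding protein of the small subunit's head (chr12:69157722-69159186 on the minus strand, GRCm38), had the lowest ratio over all cells. Its level was 6523 CPM in knock-in and 10549 CPM in wild-type B-like cells, 8271 and 14404 CPM in T-like, 5207 and 8413 CPM in NK-like and 5607 and 9128 CPM in monocyte-like cells. Within each class the knock-in value was the lower one, and the log2 ratios were -0.69, -0.80, -0.69 and -0.70. Rps21 (chromosome 2), another small-subunit protein, stood at 3643 CPM in knock-in and 5668 CPM in wild-type B-like cells, and at 4727 and 7288 CPM in T-like cells. It had nearly the same ratio in each class, -0.64, -0.62, -0.64 and -0.64. Rps28 had 4111 CPM in knock-in and 6303 CPM in wild-type B-like cells and 3494 and 5753 CPM in monocyte-like cells, with ratios from -0.62 to -0.72. Rps15, whose protein is needed for the export of the small subunit from the nucleus, was less abundant but shifted as far. It had 565 CPM in knock-in and 852 CPM in wild-type B-like cells and 450 and 803 CPM in monocyte-like cells, with ratios of -0.59 (-0.63 to -0.55) and -0.84 (-1.04 to -0.63).

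On the large subunit, Rpl38, which in mouse embryos is needed for the translation of particular Hox messages, had 3722 CPM in knock-in and 5687 CPM in wild-type B-like cells and 4492 and 6571 CPM in T-like cells. Its ratios ran from -0.55 in T-like to -0.68 in monocyte-like cells. Rps27, a zinc-finger protein of the small subunit, was among the most abundant members, with 7025 CPM in knock-in and 9722 CPM in wild-type B-like cells and ratios from -0.47 to -0.55. Rps25, known for its part in translation from viral internal ribosome entry sites, had ratios from -0.46 to -0.61, and Rpl23a, at the exit of the nascent chain, from -0.41 to -0.55. Rpl12 came closest to the threshold from inside with -0.32 in B-like cells, and Rplp2 from outside with the same rounded ratio, -0.32, just short of 0.32 in size. Rpl39 and Rpl35 were also just outside, each with a smallest size of 0.30.

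The higher members moved together as well but less far. Rpl3, a core protein of the peptidyl transferase centre, had 2950 CPM in knock-in and 2243 CPM in wild-type B-like cells, 3590 and 2850 CPM in T-like, 2578 and 2006 CPM in NK-like and 2056 and 1664 CPM in monocyte-like cells. Its ratios were 0.40, 0.33, 0.36 and 0.31, so that it stayed just under the threshold in monocyte-like cells. Rplp0 followed with 0.41 in B-like and 0.24 to 0.28 in the other classes, from 5179 CPM in knock-in and 3893 CPM in wild-type B-like cells. Rpl7a, Rps2, Rpl15, Rps3, Rpl29 and Rpl10a completed the 8 highest over all cells, with ratios there between 0.22 and 0.28. Rps2 and Rps3 line the channel where the message enters the small subunit. Each of the 8 was higher in the knock-in library in all 4 classes. The sums that chose the 8 include these classes, so that is a description only. Under a stricter gate no member was past the threshold on the high side in B-like cells: Rpl3 had 0.30, Rplp0 0.29, Rpl15 0.27 and Rpl7a 0.22. When the members' own median was subtracted in each class, 12 were past the threshold on the low side and 1 on the high side, and 78 stayed within 0.32 of each other. The shares of all genes after that subtraction are not given here.

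**Figure D3:**
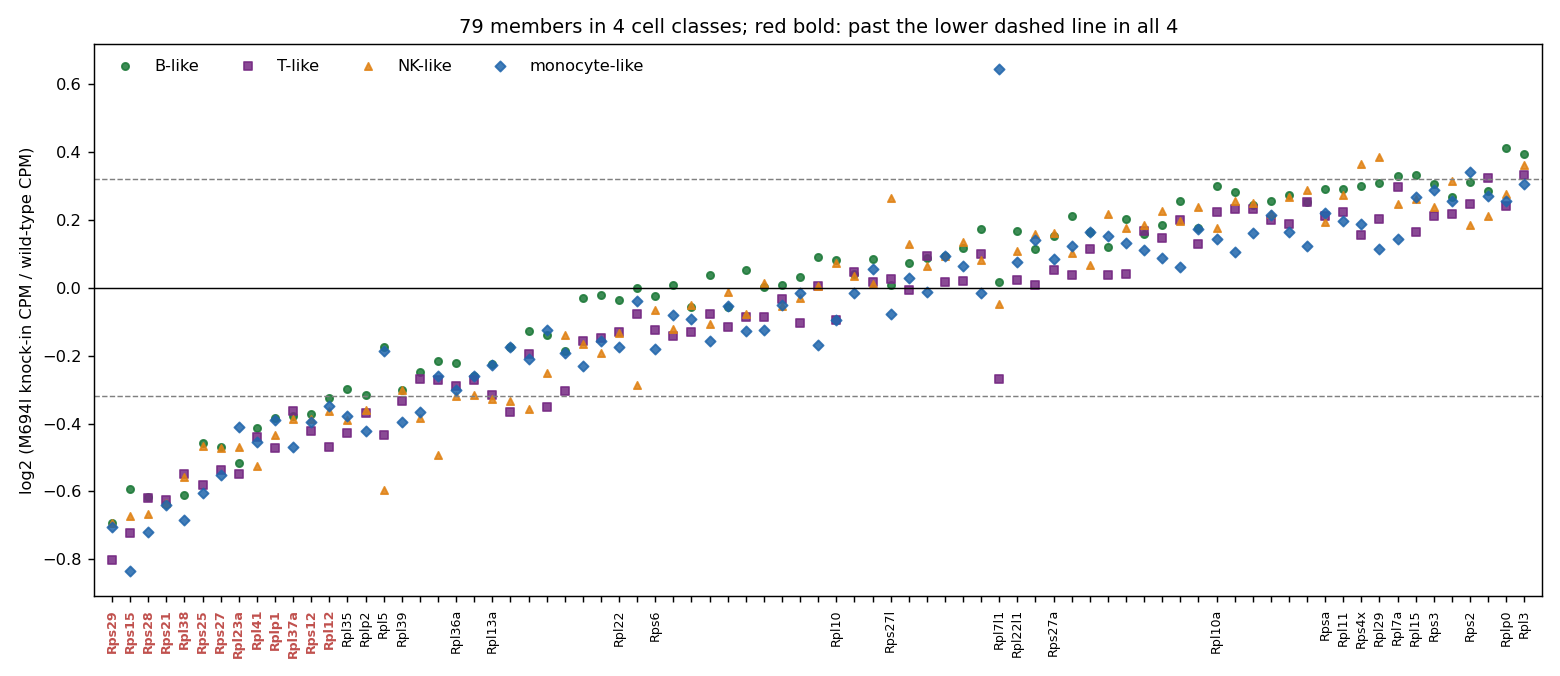
Log2 ratio of knock-in over wild-type CPM (vertical axis) for 79 of the 80 members that passed the filter in all 4 main classes, ordered by their mean, with the names of those described in the text or past the threshold; each symbol is 1 class and dashed lines mark 0.32 in size. The symbols of a member lie close together along a slope from Rps29 at the left to Rpl3 at the right, the 13 members in red lie under the lower line in every class, and Rpl5 and Rpl7l1 are spread widest.

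2 members differed between classes by at least 0.32 with a counting interval of the difference above 0, 2.5% of the 80, where 22.9% of 4630 genes did. The interval compares the highest with the lowest class and does not allow for that choice or for the number of members searched. Rpl5, which with Rpl11 and the 5S ribosomal RNA forms the particle that binds Mdm2, had log2 ratios of -0.60 (-0.92 to -0.29) in NK-like, -0.43 (-0.50 to -0.37) in T-like and -0.17 (-0.22 to -0.13) in B-like cells. It had 327 CPM (110 UMIs) in knock-in and 495 CPM (379 UMIs) in wild-type NK-like cells, and 464 and 524 CPM in B-like cells. The difference between the B-like and NK-like ratios was 0.42 (0.11 to 0.73). Its partner Rpl11 went the other way in every class, with ratios from 0.20 to 0.29 and, in NK-like cells, 3799 CPM in knock-in and 3143 CPM in wild-type cells. Rpl7l1, a little expressed relative of Rpl7, had 35 knock-in and 33 wild-type UMIs in monocyte-like cells (59 and 37 CPM; 0.64, -0.08 to 1.38) and 201 and 321 UMIs in T-like cells (39 and 47 CPM; -0.27, -0.53 to -0.01). In monocyte-like cells its interval includes 0. Rps27l also spanned over 0.32 (0.34), but the interval of that difference included 0 (-0.12 to 0.81). Beside the monocyte-like values, the 8 proliferation genes summed to 253 CPM in knock-in and 25 CPM in wild-type cells, with 5 of the 8 at 0 in the wild-type cells. At least 5 UMIs of these genes were found in only 2 knock-in monocyte-like cells (40292 UMIs in all) and 1 wild-type cell (7593 UMIs). The part of the proliferation genes was not tested.

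The stalk proteins did not move as a unit. Rplp1 was lower in every class (-0.38 to -0.47) and Rplp2 too (-0.32 to -0.42), while Rplp0, which anchors both to the ribosome, was higher. In T-like cells Rplp1 had 3799 CPM in knock-in and 5267 CPM in wild-type cells, Rplp2 had 3497 and 4520 CPM, and Rplp0 had 7926 and 6705 CPM. Among the 4 X-linked members the directions were mixed too. Over all cells Rps4x had 5752 CPM in knock-in and 5042 CPM in wild-type cells (0.19), Rpl10 had 1578 and 1543 CPM (0.03), Rpl36a had 1406 and 1727 CPM (-0.30), and Rpl39, at the exit tunnel, had 6115 and 8011 CPM (-0.39). Both libraries carried the Y-linked gene Ddx3y (2396 knock-in and 3790 wild-type UMIs) and almost no Xist (2 and 4 UMIs).

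Other members with known roles differed less. Rps6, whose phosphorylation is a readout of mTORC1 signalling, had 889 CPM in knock-in and 944 CPM in wild-type cells (-0.09), and Rps27a, made as a fusion with ubiquitin, had 5852 and 5606 CPM (0.06). Rpl22, which mice need for alpha-beta T cell development, had 2547 CPM in knock-in and 2787 CPM in wild-type T-like cells (-0.13), and its paralog Rpl22l1 had 1921 and 1892 CPM (0.02, interval -0.02 to 0.06). Rpl13a, linked in human monocytes to interferon-gamma-induced silencing of inflammatory messages, had 656 CPM in knock-in and 768 CPM in wild-type monocyte-like cells (-0.23, -0.41 to -0.05) and was lower in each other class too (-0.22 to -0.33). Rpsa, also known as a laminin receptor, was higher in all 4 classes (0.19 to 0.29).

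**Figure D4:**
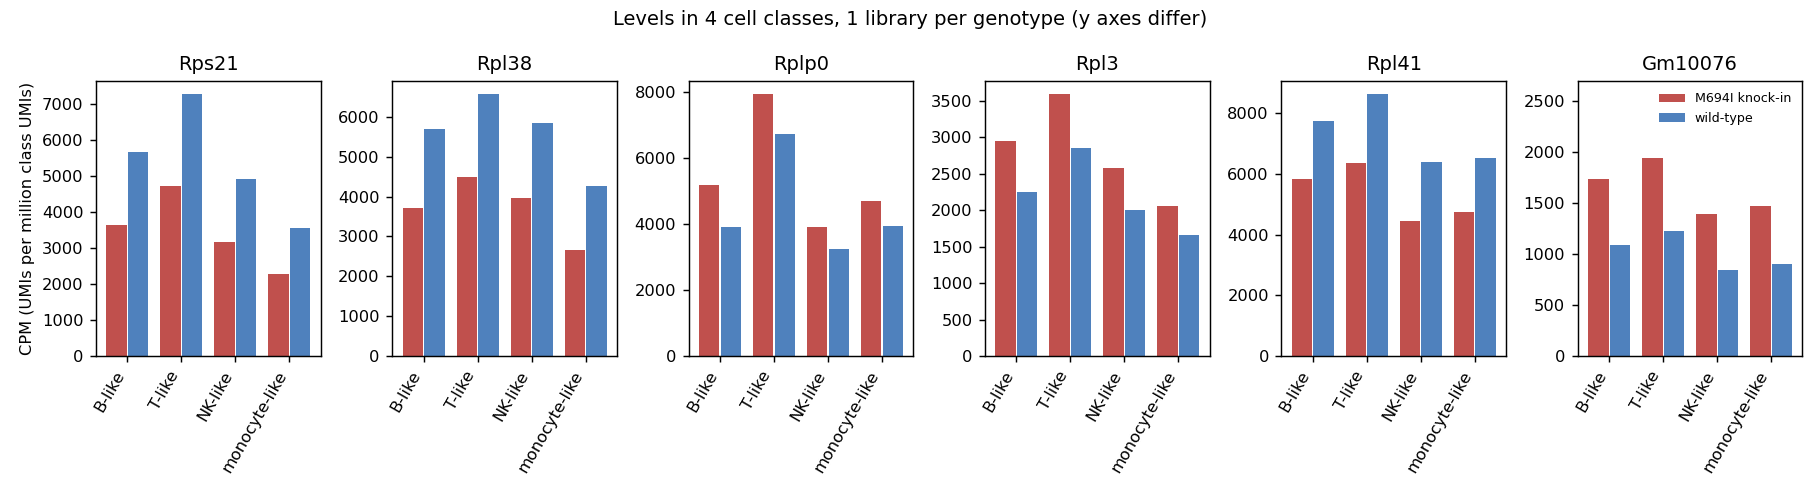
Level in CPM (vertical axes, which differ between panels and start at 0) of Rps21, Rpl38, Rplp0, Rpl3, Rpl41 and the feature Gm10076 in the 4 main classes, knock-in left and wild-type right. Rps21, Rpl38 and Rpl41 are lower and Rplp0, Rpl3 and Gm10076 higher in the knock-in library in every class.

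The members that were lower were mostly the shortest. The 13 members lower in all 4 classes have coding lengths from 75 to 495 bases in the GENCODE M21 annotation, where the family runs up to 1257. The 6 members of at most 250 coding bases that passed the filter (Rpl41, Rpl39, Rps29, Rps28, Rpl38 and Rps21) were each past the threshold on the low side over all cells, as were 9 of 21 with 251 to 400 bases, 3 of 30 with 401 to 600, 1 of 21 with 601 to 1000 and 0 of 2 above. In 4 groups of about equal number ordered by coding length, the members' median log2 ratio was -0.36, -0.11, 0.09 and 0.15 over all cells, and -0.28, -0.01, 0.18 and 0.23 in B-like cells. Across the 80 members Spearman's rho between ratio and coding length was 0.67 over all cells and 0.69, 0.61, 0.57 and 0.68 in B-like, T-like, NK-like and monocyte-like cells. The points share the same 2 libraries, and the rho of the ratio with GC content (0.13) or wild-type level (-0.10) was small. The split was not one of subunits: over all cells 8 of 32 small-subunit and 11 of 48 large-subunit members were lower, with medians of 0.01 and -0.05, where 22.4% of all genes were lower.

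Other genes followed another order. Over all cells their ratio fell with coding length (rho -0.54 over 6828 genes), and of the 112 other genes with at most 250 coding bases 6.25% were lower and 16.1% higher, with a median of 0.07. By the length of the whole transcript the sets drew closer among the shortest only. The 6 members with at most 400 bases had a median of -0.67 and the 21 other genes of that length -0.37, of which 12 (57.1%) were lower. Over the full range the order stayed opposite, with a rho of 0.42 for members and -0.56 for other genes. With 401 to 500 bases the medians were -0.29 for 9 members and 0.01 for 59 other genes. With 601 to 800 bases they were 0.07 for 18 members and 0.26 for 223 other genes. The 21 other genes of at most 400 bases include Rps27rt and Gm10076, which closely match the members Rps27 and Rpl41. By class, other genes of that length had medians of -0.32, -0.22, -0.44 and -0.39 in B-like, T-like, NK-like and monocyte-like cells. Over all cells, transcripts annotated with at most 400 bases thus had a median below -0.32 in both sets. Members were below other genes of like length in these 3 bins. Above 2500 bases the order was the other way, with medians of -0.05 for 3 members and -0.23 for 3832 other genes. The part of transcript length in the members' shifts was not tested.

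**Figure D5:**
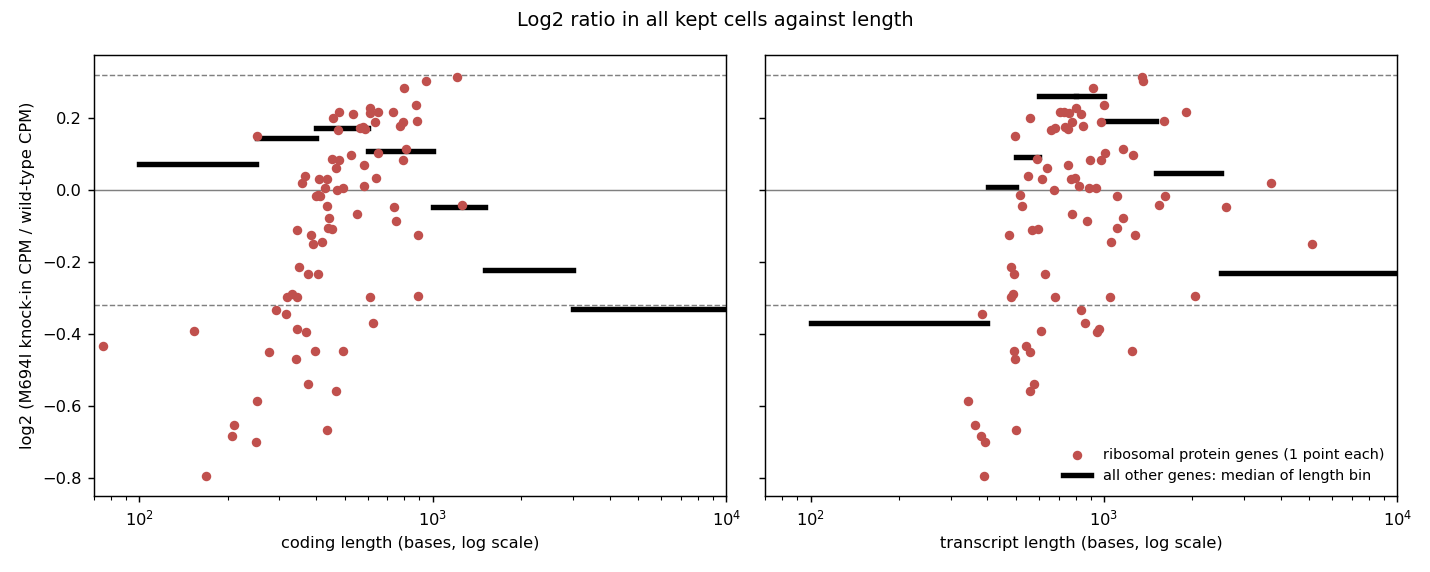
Log2 ratio of knock-in over wild-type CPM over all kept cells (vertical axis) against coding length (left) and transcript length (right), both in bases on a log scale. Red points are ribosomal protein genes, black bars the median of all other genes in each length bin (the first and last bins have no outer limit), and dashed lines mark 0.32 in size; members of at most 250 coding bases lie between -0.39 and -0.79 while the bar above them is at 0.07.

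Counts of single members depend on how reads were split between near-identical copies. Of the 83 members, 59 have at least 1 other annotated gene that matches 100 or more of the last 300 bases of their transcript at 95% identity or more, and the ratios of members with and without such copies had medians of -0.01 and -0.04 over all cells. For 12 of the 59 a copy is among the counted features. The copies of the others carry no counts here, and their effect was not tested. Copies that match over at least 200 bases were added to their members, and Rpl41 lost its call over all cells. Its copy Gm10076, which matches Rpl41 over 292 bases at 99.3% identity, had 1735 CPM in knock-in and 1103 CPM in wild-type cells, a log2 ratio of 0.65 (0.63 to 0.67), and 0.66, 0.66, 0.73 and 0.71 in B-like, T-like, NK-like and monocyte-like cells. Rpl41, whose protein of 25 residues is the shortest of the ribosome, had 5766 and 7779 CPM and a ratio of -0.43. Added together they had 7501 CPM in knock-in and 8882 CPM in wild-type cells, a ratio of -0.24, which ends the call of Rpl41 in each main class (-0.23 in B-like, -0.25 in T-like, -0.31 in NK-like and -0.25 in monocyte-like cells). How the counting split the reads of so similar a pair is not known, and Rpl41 is therefore uncertain. Rps27 with Rps27rt, identical over the last 300 bases, kept its ratio (-0.58 together, -0.59 alone), as did Rpl35 with Gm2000 (-0.39 and -0.39).

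In cells outside the 4 main classes, which the choice of the 13 members did not use, the median of the 13 was also on the low side. Single ratios of the 13 ran up to -0.09 in dendritic-like and 0.07 in plasma cell-like cells. These cells come from the same 2 libraries, so they are no independent check. In dendritic-like cells, which were led by Siglech and so by plasmacytoid cells (41 knock-in and 44 wild-type cells), 10 of the 13 were lower by at least 0.32, with a median of -0.42, as were 5 of the other 67 (median 0.14) and 30.7% of all genes. In plasma cell-like cells 7 of the 13 were lower (median -0.32) and 0 of the other 67 (median 0.23), with 21.1% of all genes. Among cells without a class 11 of the 13 (median -0.46) and 0 of the other 67 (median 0.10) were lower, with 22.3% of all genes. In neutrophil-like cells 13 of the 13 (median -1.39) and 63 of 66 others (median -0.74) were lower, as were 62.6% of all genes, whose median was -0.58. The subsets of B-like and T-like cells are part of the sums that chose the 13, so their values are a description only. Within B-like cells the 13 had medians of -0.54 in follicular, -0.49 in marginal zone, -0.38 in transitional and -0.41 in activated cells, and within T-like cells -0.66 in CD4 and -0.51 in CD8 cells.

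At the entry with the longest run, at least 8 C or T bases were present in 4 of the 10 members lower in all 4 classes that had a promoter entry and in 26 of the other 53. Rpl38, with a run of 10 bases in the window printed above, had a ratio of -0.65 over all cells, and Rpl15, with 17, had 0.23.

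The lists of related genes differed in direction. Of 25 translation factors and other TOP messages, 2 were higher and 2 lower over all cells (12.5% and 22.4% of all genes; median 0.01). Among them were Snhg8 (-0.43), a non-coding host gene, and Eef1d (0.40), a subunit of elongation factor 1. Fau, the fusion that yields ribosomal protein S30, had 8485 CPM in knock-in and 9275 CPM in wild-type cells (-0.13). Of 38 genes of nucleolar ribosome assembly that passed the filter, 0 were higher and 16 lower over all cells, against 12.5% and 22.4% of all genes (median -0.22), led by Polr1a (-0.85), the large subunit of RNA polymerase I, the helicase Ddx21 (-0.85) and Rrp12 (-0.64). In T-like cells their median was -0.00, with 5 higher and 7 lower of 36 (18.3% and 13.2% of all genes). Genes outside the family with 1501 to 3000 coding bases had a median of -0.22 over all cells, with 3.28% higher and 34.2% lower. The part of coding length in the values of this list was not tested. Of 16 genes of mTORC1 and TOP control 1 was higher and 6 lower over all cells (12.5% and 22.4% of all genes; median -0.18). The furthest were Sesn2 (-0.58), Rptor (-0.50) and Larp1 (-0.46).

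Mitochondrial ribosomal protein genes, which encode the separate ribosome of that organelle, lay on the other side: of 76 past the filter 26 were higher and 0 lower over all cells (12.5% and 22.4% of all genes), with a median of 0.22, and Mrpl28 (0.63), Mrpl34 (0.55) and Mrpl42 (0.54) were furthest. Their medians were 0.25, 0.24, 0.19 and 0.48 in B-like, T-like, NK-like and monocyte-like cells. In NK-like cells 26 of 68 were higher and 9 lower (21.5% and 32.0% of all genes). Genes outside the cytosolic family with 401 to 600 coding bases had a median of 0.17 over all cells, with 29.2% higher and 3.95% lower. The part of coding length in the values of the mitochondrial list was not tested. Stress genes, given because they mark handling of fresh tissue, had 6 of 16 higher and 1 lower over all cells (12.5% and 22.4% of all genes), led by Hspa1a (1.34), Jun (0.68) and Fos (0.65), and in monocyte-like cells 1 of 15 higher and 7 lower (25.2% and 26.6% of all genes); their part in the members' ratios was not tested.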

How the data were processed

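Both samples are spleen cell suspensions run on the 10x Genomics 3' v3.1 assay, per the labels' protocols. The authors deposited raw UMI counts for each gene and barcode. Cell Ranger appears in version 6.1.2 per the file headers and in version 7.1.0 per the submitters' processing notes, which also list Seurat 5.0.3 and the build mm10. No source used here states read lengths or the gene annotation.

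Barcodes with at least 500 UMIs, 200 genes and under 10% mitochondrial UMIs were kept. Scrublet (scanpy 1.11.5, expected rate 0.08) marked 209 knock-in and 255 wild-type doublets at a score of 0.35, set for both libraries after the scores had been seen. Cells were gated on marker lists; the scoring of the gate was set after the data had been seen. Counts were summed per library and class and scaled to CPM. Ratios carry exact conditional binomial intervals, and shares exact Clopper-Pearson ones, at 95%, for counting error only. The code was tested on simulated data. TMM factors came from edgeR 4.0.16 in R 4.3.3. Lengths came from GENCODE M21 (GRCm38), in which 32158 of 32285 features (99.6%) were found; 1 annotated transcript stands for each gene.

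The members, lists and alternatives were chosen with earlier results of these data known. Named members are the 8 highest and 8 lowest over all cells, up to 10 that were unlike between classes, up to 10 alike, and members with known roles, from a list; of related lists, the 3 largest in size, except items that are not reported here. Other genes named were chosen after their values were seen.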

Additional observations from a re-analysis of the deposited data

Results flagged for a closer look

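Between cell classes 2 members (2.5% of 80) differed by at least 0.32 with a counting interval above 0, where 22.9% of 4630 genes did. The interval does not allow for the choice of the highest and lowest class or for the number of members searched. The differences were not tested across mice, since each genotype is 1 library. Rpl7l1 had a ratio 0.91 log2 units higher in monocyte-like than in T-like cells (0.64 against -0.27; interval of the difference 0.18 to 1.64), on 35 knock-in and 33 wild-type UMIs in the first class. Rpl5 had a ratio 0.42 higher in B-like than in NK-like cells (-0.17 against -0.60), on 110 knock-in and 379 wild-type UMIs in NK-like cells.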

How the results depend on the processing

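No paired analysis was possible because each genotype is 1 library and the labels carry no replicate numbers. Of the 528 values of named members under the alternatives, 520 kept their sign, and of 196 past 0.32 in the reported form 186 stayed past it. Lost were Rpl41 with its near copies added (-0.24), Rpl39 (-0.32 each) and Rplp2 (-0.31 and -0.28) with TMM factors and in cells of 1000 to 3000 UMIs, and in B-like cells Rpl15 (0.27), Rpl3 (0.30), Rpl7a (0.22) and Rplp0 (0.29) under a stricter gate and Rpl7a (0.31) in Leiden clusters. Of the 13 members lower in all 4 classes, 12 stayed so with TMM factors, a mitochondrial share under 5%, Leiden clusters or near copies added, 11 after thinning to 1000 UMIs, and 13 in the other settings that left all 4 classes. Keeping doublets made 1 member higher in all 4 classes. Members unlike between classes numbered 1 under the stricter filter (a mean of 50 CPM and 100 UMIs) and 10 after thinning. The shares of all genes under these settings are not given here. Cells of 1000 to 3000 UMIs left no main monocyte-like class, and the stricter gate left B-like and T-like cells, so neither gave counts over 4 classes.

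Members' median ratios moved to 0.044 over all kept cells with TMM factors, to -0.15 in T-like cells under the stricter gate and to 0.16 in NK-like cells of 1000 to 3000 UMIs. Counts of higher members over all kept cells were 3 with a total free of immunoglobulin and mitochondrial UMIs and 3 with TMM factors, 1 with at least 1000 UMIs and 500 genes, 2 with 1000 to 3000 UMIs and 1 after thinning. In B-like cells they were 13 with TMM factors, 2 with 1000 to 3000 UMIs, equal weights, thinning or a total without Malat1, and 0 under the stricter gate. In T-like cells they were 0 with a total free of ribosomal protein UMIs, TMM factors, equal weights or the stricter gate, and 1 with the immunoglobulin-free total, thinning or the Malat1-free total. In NK-like cells they were 10 with TMM factors, 24 with 1000 to 3000 UMIs (13 lower), 8 with equal weights, 15 after thinning and 9 in Leiden clusters. In monocyte-like cells they were 1 with a total free of ribosomal protein UMIs, the stricter filter or equal weights, 4 after thinning and 0 in Leiden clusters. For none of these counts is the share of all genes under the same setting given here, so they describe members only.

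The log2 ratio of the share over all kept cells was -0.058 with the immunoglobulin-free and mitochondria-free total, -0.13 with a mitochondrial share under 5%, -0.097 with at least 1000 UMIs and 500 genes, -0.028 with 1000 to 3000 UMIs, -0.097 with doublets, -0.065 with equal weights and -0.057 after thinning. For B-like cells it was -0.024 with the first total, -0.011 with at least 1000 UMIs, -0.035 with 1000 to 3000 UMIs, -0.013 with doublets, -0.044 with equal weights, -0.037 after thinning, -0.012 in Leiden clusters and -0.057 under the stricter gate. For T-like cells it was -0.091 with the first total, -0.081 with at least 1000 UMIs, -0.094 with 1000 to 3000 UMIs, -0.12 with equal weights, -0.11 after thinning, -0.079 in Leiden clusters and -0.17 under the stricter gate. NK-like cells changed sign, with 0.083 in cells of 1000 to 3000 UMIs and 0.0019 after thinning, beside -0.012 with equal weights and -0.0036 in Leiden clusters. Monocyte-like cells had -0.11 with equal weights and -0.066 in Leiden clusters. The causes of these moves were not tested. The totals without Malat1 and the near copies by sequence were added after seeing the data. NK-like and monocyte-like cells, with 335873 to 880012 UMIs a library, limit every 4-class count.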

Other observations

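Some genes of other families with transcripts annotated as short lay on the low side with the short ribosomal protein genes. Among 21 other genes with transcripts of at most 400 bases, Atp5k, Atp5md and Atp5mpl, small subunits of the mitochondrial ATP synthase encoded in the nucleus, had 146, 373 and 269 CPM in knock-in and 215, 522 and 366 CPM in wild-type cells, with log2 ratios of -0.56, -0.49 and -0.45 over all cells. Of the mitochondrially encoded genes in that set, mt-Nd3 had 204 CPM in knock-in and 529 CPM in wild-type cells (-1.37). In the same order mt-Nd4l had 636 and 859 CPM (-0.43) and mt-Atp8 had 91.6 and 121 CPM (-0.41). Their lengths are those annotated for each gene and need not be those of the whole message. Mitochondrial genes together were also lower, with 3.78% of knock-in and 4.72% of wild-type UMIs. Past 0.32 on the high side were Gm10076 (0.65), Tmsb15b2 (0.57) and the light chain segment Iglv1 (2.86). The choice of these genes was made with their values in view.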
